A study of Mus musculus with 36 samples.

Results

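The comparison asked which genes differed when GFP-PKP4 was put back into mouse keratinocytes without plakophilin 4 (PKP4), after 72 h in high calcium medium (HCM). It used 6 of the 36 libraries of the series, 3 of Rescue and 3 of PKP4-KO cells, chosen by their columns in the deposited count table. PKP4-KO keratinocytes came from newborn mice in which exon 9 of Pkp4 was deleted. Rescue cells are described as PKP4-KO keratinocytes transduced with a lentivirus that carries human PKP4 fused to EGFP at its N-terminus, and then selected with puromycin into a stable line. By this description both groups carried the deletion, and only Rescue had been through transduction and selection. An empty-vector control of PKP4-KO cells was not analysed here, so that GFP-PKP4 and the handling of the Rescue line cannot be told apart. WT keratinocytes of the same culture condition (3 libraries) are given for orientation, and the same pair of lines at 24 h in HCM and at 72 h in low calcium medium (LCM, 3 libraries per group each) for comparison. The labels name biological replicates without tying them to animals, so that p-values measure the spread between these libraries, which may be technical.

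PKP4 is an armadillo-repeat protein of the p120-catenin family that binds classical and desmosomal cadherins at cell-cell contacts and takes part in the local organisation of actin. When the calcium of the medium is raised, cultured keratinocytes assemble adherens junctions, desmosomes and tight junctions, stop dividing and switch on the genes of the suprabasal and cornified layers. Those genes include keratins 1 and 10, the small proline-rich (Sprr) and late cornified envelope (Lce) proteins and the transglutaminases that crosslink them.

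Pkp4 (ENSMUSG00000026991, chr2:58991088-59185552, forward strand, GRCm39) and the GFP-PKP4 sequence, which the authors added to the genome, were read first. GFP-PKP4 was at 297, 341 and 245 CPM in Rescue and 5.08, 0.436 and 0.908 CPM in PKP4-KO, that is 294.4 ± 48.1 against 2.14 ± 2.56 CPM (CPM, reads scaled to a common library size with TMM factors, mean and SD of 3 libraries). The groups did not overlap, and the exact two-sided permutation test gave p = 0.1, the smallest that 3 against 3 libraries allow. Mouse Pkp4 was at 11.9, 9.07 and 7.42 CPM in Rescue and 8.26, 6.40 and 7.15 CPM in PKP4-KO, and the groups overlapped. WT had 38.6 ± 5.19 CPM. The log2 difference of Pkp4 was 0.38 ± 0.17 (SE, adjusted p = 0.0497 in edgeR's quasi-likelihood test), the exact permutation test gave p = 0.2, and with an offset for gene length the difference was -0.21 (adjusted p = 0.262). Without TMM factors the difference was 1.55 (adjusted p = 3.87e-06 in the quasi-likelihood test). In the main model the call was lost without Rescue library 1 (0.19) or 2 (0.42) and without PKP4-KO library 2 (0.30) or 3 (0.37). Reads on Pkp4 exons other than the deleted one still count for the gene. Exon 9 of the transcript marked as canonical, Pkp4-210, lies at chr2:59142038-59142257 and has 220 bases, which is not a multiple of 3; whether the numbering of the allele is that of this transcript was not tested. It is shown because its deletion is described for both lines (forward strand, GRCm39).

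Pkp4 exon 9: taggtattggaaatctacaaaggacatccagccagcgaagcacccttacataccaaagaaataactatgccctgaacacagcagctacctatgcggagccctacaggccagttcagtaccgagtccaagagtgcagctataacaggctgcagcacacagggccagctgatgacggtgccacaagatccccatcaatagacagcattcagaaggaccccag

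The 6 libraries held between 14299799 and 21669228 counts. The PKP4-KO libraries stood apart from the other 33: their TMM factors were 0.48 to 0.55 against 0.71 to 1.39, and 18.2% to 19.8% of their counts fell on genes shorter than 1 kb, against 8.19% to 8.99% in Rescue and 4.92% to 15.98% in the 33. Counts on 80 genes of cytosolic ribosomal proteins made up 27.9% ± 1.23 of PKP4-KO, 11.9% ± 0.666 of Rescue and 18.8% ± 3.04 of WT libraries. Those genes were chosen after their values were seen. The 18S ribosomal RNA entry Rn18s.rs5 took 1.92% to 2.89% of counts in PKP4-KO and 0.71% to 0.96% in Rescue. In WT at 24 h in HCM it reached 5.35%. The 10 most counted genes took 11.2% ± 0.162 in Rescue and 15.4% ± 0.144 in PKP4-KO (exact permutation test, p = 0.1, the smallest possible). Both lines expressed all 10 keratinocyte markers, among them Krt5, Krt14 and Trp63. Their sum was 28209 to 28682 CPM in Rescue, 63030 to 68628 in PKP4-KO and 54750 to 64806 in WT. Of the 10, 5 were called higher and 5 lower in Rescue. The gap between these sums depends on the TMM factors, which were 1.16 to 1.19 in Rescue. They lower CPM in Rescue and raise them in PKP4-KO. Without TMM factors the log2 difference was 0.38 for Krt5, -0.23 for Krt14 (not called) and 2.01 for Trp63. Summed markers of fibroblasts reached 4.91 to 6.76 CPM in Rescue and 0 to 1.25 in PKP4-KO, those of melanocytes 4.32 to 6.86 and 1.14 to 1.74, of endothelium 4.85 to 7.18 and 0.727 to 3.56, and of immune cells 62.2 to 69.5 and 33.3 to 47.1. Of the 9 immune markers, 5 were at 0 in Rescue and 4 in PKP4-KO. Only 2 were tested: 1 was called higher in Rescue, and the other lay lower without a call. Their median log2 difference of -1.80 is the midpoint of these 2 values and describes neither gene. The part of these cell types in the results was not tested.

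The lines also differed in genes of the Y chromosome. Ddx3y, Kdm5d, Eif2s3y and Uty together had 169 to 238 counts in the Rescue libraries and 0 to 3 in PKP4-KO. Over all culture conditions the sum was 37 to 238 in the 12 Rescue libraries, 0 to 3 in the 12 PKP4-KO and 0 to 12 in the 12 WT libraries, whereas Xist had 350 to 1385 counts in WT, 0 to 37 in Rescue and 0 to 13 in PKP4-KO. In these reads the Rescue and PKP4-KO libraries therefore differed as cell populations, and that difference cannot be told apart from an effect of GFP-PKP4 in any result below.

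Of 15114 tested genes, 10082 differed between Rescue and PKP4-KO (66.7%, adjusted p below 0.05, edgeR), 5625 of them higher (37.2%) and 4457 lower (29.5%) in Rescue. Past a 2-fold change lay 4887 genes (32.3%), of which 2644 were higher (17.5%) and 2243 lower (14.8%). The libraries of the groups did not overlap for 75.5% of the genes. The difference followed gene length: its median was −3.12 on the log2 scale for the 708 genes under 0.5 kb, −0.76 for those of 1 to 2 kb and 1.21 for the 2292 genes of at least 8 kb. At 24 h in HCM the same medians were −0.67, −0.13 and 0.28. When each library's length trend was given to the model as an offset, 9101 genes differed (60.2%), 4502 were higher (29.8%) and 4599 lower (30.4%), and 7087 genes were called in the same direction both ways, 70.3% of the 10082 and 77.9% of the 9101 called with the offset. What part of the length trend lies in the cells and what part in the RNA or the libraries was not tested, and fewer cells of a type cannot be told apart from less RNA per cell. Without TMM factors the median log2 difference was 1.171 higher, 84.7% of the calls instead of 55.8% were higher in Rescue, and 1544 of the 4457 lower genes lay above 0. The median over all genes was 0.20 (0.04 with the length offset, 1.37 without TMM factors), and list medians below are given relative to it. Beside every list stand its counts for Rescue against PKP4-KO at 72 h in HCM in the main model, with the length offset and without TMM factors. They are to be read against the counts over all genes. Without TMM factors these were 9877 higher and 1785 lower. Of desmosome, glycolysis and collagen genes, 66.7% each were called, the share over all genes. The shares of keratinocyte transcription factor (63.3%), EGF (63.6%), cytokine (62.5%) and interferon-stimulated genes (35.7%) lay below it.

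**Figure D1:**
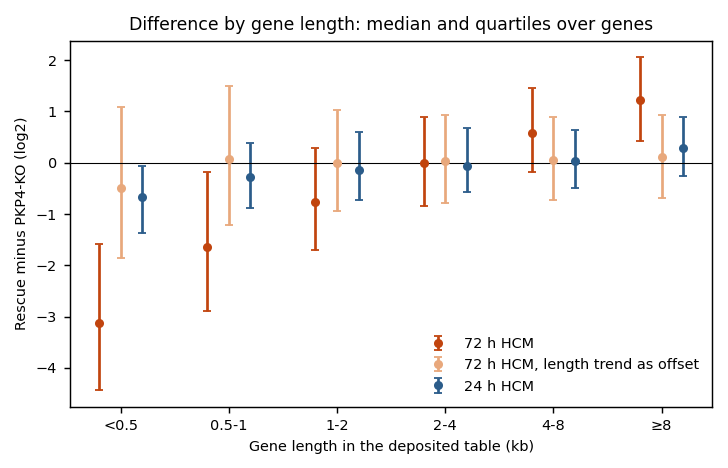
Rescue minus PKP4-KO on the log2 scale (vertical axis) in 6 classes of gene length in kb (horizontal axis); points are medians and bars quartiles over genes. At 72 h in HCM the median climbs from −3.12 in the shortest to 1.21 in the longest class, is between −0.49 and 0.10 with the length trend as an offset, and runs from −0.67 to 0.28 at 24 h in HCM.

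Nearly all Lce genes were higher in Rescue, while other cornified envelope genes, also within the Sprr2 family, moved both ways. In the list of suprabasal and cornified genes, 28 of 53 tested genes were higher and 15 lower in Rescue (34 and 12 with the length offset, 36 and 10 without TMM factors), and the list median was 0.79 (2.49 with the length offset) above that of all genes. All 14 Lce1 genes tested and 5 of 6 Lce3 genes were higher in Rescue, with log2 differences from 0.43 (Lce3c, not called) to 6.34 (Lce1m). With the length offset all 20 were called higher. They are short, with a median of 690.5 bp, a length class in which the median gene was lower. Summed over the 14 Lce1 genes, the level was 1441, 1231 and 989.9 CPM in Rescue and 117.9, 125.9 and 124.3 CPM in PKP4-KO, with 1086 to 1435 CPM in WT. The 3 Rescue libraries were in the range of WT or just outside it, and every PKP4-KO library was far below. The Lce genes encode structural proteins of the late cornified envelope and lie side by side on chromosome 3.

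Single members showed the same separation. Lce1g (ENSMUSG00000027919, chr3:92657455-92659645, reverse strand) was at 246, 221 and 172 CPM in Rescue and 9.15, 8.87 and 8.97 CPM in PKP4-KO, a log2 difference of 4.56 ± 0.39 (adjusted p = 1.34e-10), and WT had 129 ± 18.3 CPM. Lce3f was at 752, 659.8 and 807 CPM in Rescue and 64.4, 59.5 and 44.6 CPM in PKP4-KO (log2 difference 3.72 ± 0.36, adjusted p = 1.19e-09). Ivl, which encodes involucrin, an early scaffold of the envelope, was at 72.5, 83.2 and 122 CPM in Rescue and 23.4, 20.2 and 17.3 CPM in PKP4-KO (log2 difference 2.19 ± 0.28, adjusted p = 1.83e-07), and Lor, which encodes loricrin, differed by 0.99 ± 0.35 (adjusted p = 0.0156). No library of Rescue overlapped one of PKP4-KO for Lce1g, Lce3f or Ivl. Lce and Sprr2 genes resemble their neighbours in sequence, so that reads may have been split or lost between them in counting.

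Other members of the list were lower in Rescue. Krt1 (ENSMUSG00000046834, chr15:101753861-101759229, reverse strand), the type II keratin of the first suprabasal cells, was at 17.8, 18.1 and 17.5 CPM in Rescue and 3773, 3642 and 3841 CPM in PKP4-KO. All Rescue libraries were far below those of PKP4-KO, on the side of WT (39.7 ± 3.596 CPM), with a log2 difference of -7.72 ± 0.62 (adjusted p = 3.22e-11; -8.07 with the length offset). Its partner Krt10 was at 504, 468 and 298 CPM in Rescue and 4705, 3986 and 4619.9 CPM in PKP4-KO (log2 difference -3.39 ± 0.41, adjusted p = 7.39e-08), and WT had 533 ± 96.2 CPM. Krtdap, a secreted peptide of differentiating keratinocytes, was at 895, 796 and 982 CPM in Rescue and 11971, 14637 and 12312 CPM in PKP4-KO (log2 difference -3.86 ± 0.77, adjusted p = 9.30e-05). The transglutaminases Tgm1, Tgm3 and Tgm5 fell by 2.72, 2.55 and 2.73 on the log2 scale. Within the Sprr2 family, Sprr2a1, Sprr2a2, Sprr2a3 and Sprr2b were lower and Sprr2d, Sprr2e, Sprr2f, Sprr2i, Sprr2k and Sprr2g higher in Rescue, from -5.55 for Sprr2b to 2.51 for Sprr2k. Sprr1a (8720.1 ± 765 against 10502 ± 2404 CPM) and Sbsn (1941 ± 181 against 2538 ± 289.99 CPM) did not pass the test.

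**Figure D2:**
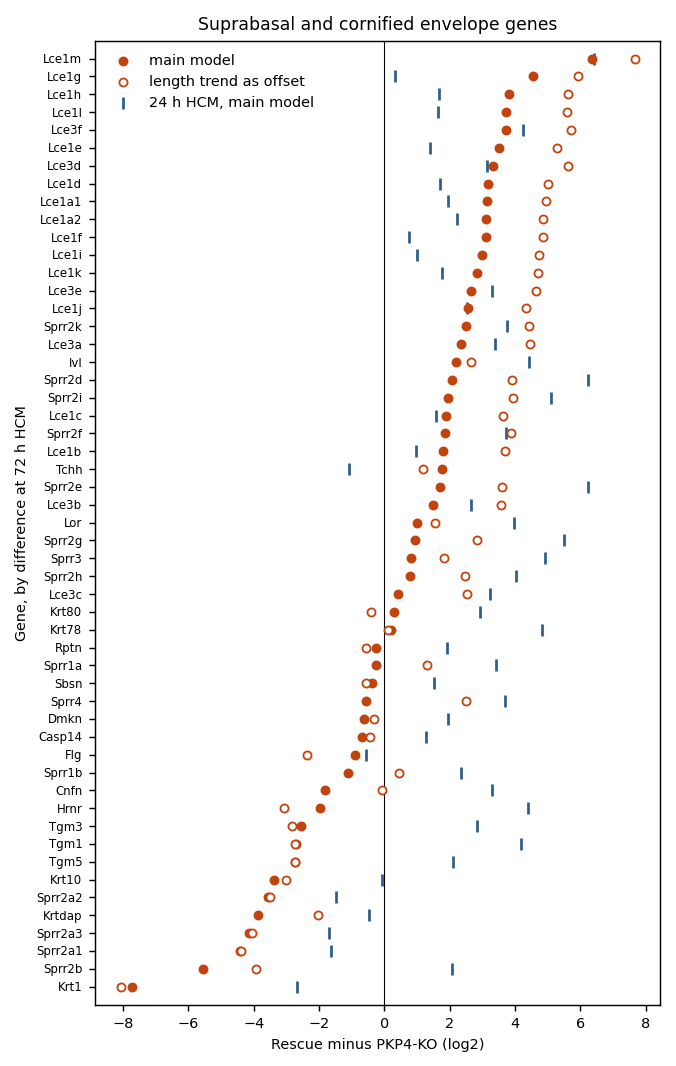
Rescue minus PKP4-KO on the log2 scale (horizontal axis) for the 53 tested genes of the suprabasal and cornified list (vertical axis, sorted); filled points are the main model, open points the model with the length trend as an offset, blue ticks the same lines at 24 h in HCM. The Lce genes lie at the upper end, up to 6.34 for Lce1m, and Krt1 is lowest with −7.72; the offset moves most short genes further up, and at 24 h Tgm1, Tgm3 and Tgm5 lie above 0.

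The 150 bases before the transcription start of 3 genes that were higher and 2 that were lower are shown, as RefSeq gives them for GRCm38.p6 on the strand of the gene, because these genes changed in opposite directions within 1 programme. Capitals mark the TATA box TATAAA, the run ATAAAA (which can overlap a TATA box), the AP-1 site TGANTCA and the GC box GGGCGG, each searched on both strands. ATAAAA was added after the Lce sequences had been seen. The windows are at chr3:92752339-92752488, reverse strand (Lce1g), chr3:92992067-92992216, forward strand (Lce3f), chr3:92573736-92573885, reverse strand (Ivl), chr11:99389365-99389514, reverse strand (Krt10) and chr7:30787755-30787904, forward strand (Krtdap).

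Lce1g: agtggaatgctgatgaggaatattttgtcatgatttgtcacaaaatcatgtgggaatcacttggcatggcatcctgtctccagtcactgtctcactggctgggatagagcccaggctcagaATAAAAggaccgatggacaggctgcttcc

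Lce3f: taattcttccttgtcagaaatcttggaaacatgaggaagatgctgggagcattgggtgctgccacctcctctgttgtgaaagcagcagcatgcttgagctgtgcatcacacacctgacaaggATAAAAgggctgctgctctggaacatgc

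Ivl: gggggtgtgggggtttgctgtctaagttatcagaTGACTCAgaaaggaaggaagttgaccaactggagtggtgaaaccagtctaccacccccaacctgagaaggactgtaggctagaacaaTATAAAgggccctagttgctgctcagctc

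Krt10: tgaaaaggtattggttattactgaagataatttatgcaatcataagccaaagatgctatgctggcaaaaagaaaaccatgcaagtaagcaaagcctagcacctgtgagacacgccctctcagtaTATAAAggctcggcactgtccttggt

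Krtdap: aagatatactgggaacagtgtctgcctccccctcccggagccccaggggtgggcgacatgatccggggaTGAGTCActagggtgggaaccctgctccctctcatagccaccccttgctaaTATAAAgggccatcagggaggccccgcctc

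In the full 250 bases upstream, ATAAAA occurred in 18 of 19 windows of Lce1 and Lce3 genes (94.7%; 19 of 20 genes matched the table) and in 17% of all 32851 windows, TATAAA in 3 of the 19 (15.8%) and in 12.4% of all, and neither AP-1 sites nor GC boxes were found in the 19. Among 26 windows of cornified genes higher in Rescue, Lce genes included (26 of 28 genes matched), 20 held ATAAAA (76.9%), 10 TATAAA (38.5%), 7 an AP-1 site (26.9%) and 0 a GC box. Among 17 windows of cornified genes lower in Rescue (14 of 15 genes matched), 5 held ATAAAA (29.4%), 6 TATAAA (35.3%), 6 an AP-1 site (35.3%) and 2 a GC box (11.8%). AP-1 sites were in 6.75% and GC boxes in 32.7% of all windows. In Ivl the AP-1 letters begin 116 bases before the start, and in Krtdap 81. The Lce windows are similar to each other in sequence and are not independent, and a match of letters is not a site in use.

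All 7 basal and stress keratins were lower in Rescue than in PKP4-KO, also with the length offset, while without TMM factors 5 stayed lower and Krt5 turned to higher. Krt6b, Krt16 and Krt17 are keratins of wounded and activated epidermis. Krt6b was at 5886, 6043 and 5988 CPM in Rescue and 37441, 34866 and 31746 CPM in PKP4-KO (log2 difference -2.54 ± 0.20, adjusted p = 2.58e-11). In WT it had 11452 ± 2444 CPM, below PKP4-KO and above Rescue. Krt16 differed by -2.13 ± 0.16, Krt17 by -2.16 ± 0.15 and Krt15, a keratin of basal cells, by -3.01 ± 0.27. The groups did not overlap for any of the 7, as for 75.5% of all tested genes.

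Keratins of simple epithelia, which adult epidermis hardly makes, went the opposite way: 5 of 6 tested genes were higher and 0 lower in Rescue (6 and 0 with the length offset, 6 and 0 without TMM factors). Krt7 (ENSMUSG00000023039, chr15:101308924-101328194, forward strand) was at 344, 329 and 367 CPM in Rescue and 6.35, 6.69 and 9.54 CPM in PKP4-KO, a log2 difference of 5.52 ± 0.27 (adjusted p = 1.59e-15), and WT had 6.92 ± 0.875 CPM. Krt23 was at 307, 299 and 325 CPM in Rescue and 6.10, 5.23 and 4.77 CPM in PKP4-KO (log2 difference 5.85 ± 0.39, adjusted p = 7.65e-13). Krt19 was at 8.99, 8.61 and 6.61 CPM in Rescue and 0, 0.145 and 0 CPM in PKP4-KO, and Krt8 reached 3.35 ± 0.549 against 0.129 ± 0.0160 CPM. Krt18, the partner of Krt8, was at 1.13 ± 0.147 against 0.291 ± 0.164 CPM and was not called. Krt7 and Krt23 also lay far above WT in Rescue, where WT had 61.9 ± 2.80 CPM of Krt23.

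**Figure D3:**
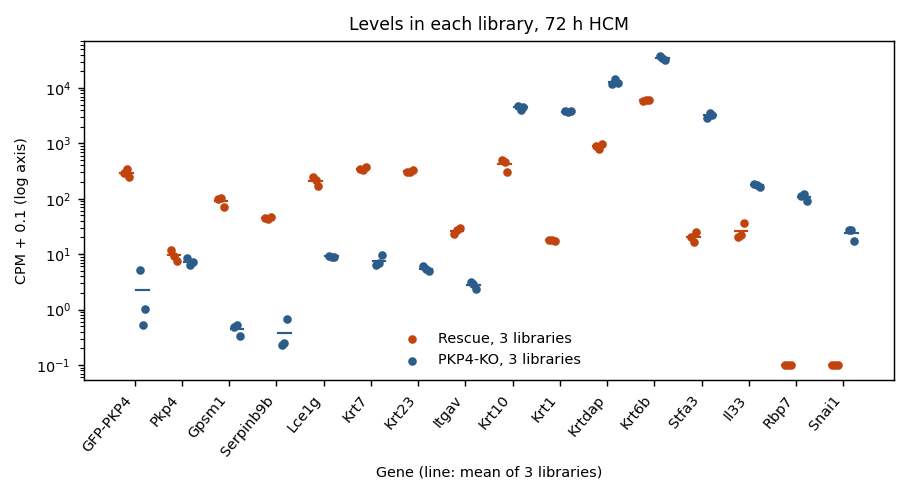
CPM plus 0.1 on a log axis (vertical) in each of the 3 Rescue and 3 PKP4-KO libraries at 72 h in HCM for 16 genes (horizontal axis); lines are means. GFP-PKP4 to Itgav other than Pkp4 are higher in every Rescue library, Krt10 to Snai1 are higher in every PKP4-KO library, and the groups overlap for Pkp4.

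Among the 10 protein-coding genes with the largest positive difference (mean of at least 20 CPM in the higher group and no overlap), GFP-PKP4 itself stood with Gpsm1, Tmprss11f, Serpinb9b, Akap12, Flot2, Padi4, Plcxd2, Ppbp and Lce1m. Gpsm1 (ENSMUSG00000026930, chr2:26205457-26238265, forward strand), a modulator of G-protein signalling with a role in spindle orientation, was at 101, 103 and 70.5 CPM in Rescue and 0.381, 0.436 and 0.227 CPM in PKP4-KO (log2 difference 8.04 ± 0.44, adjusted p = 2.03e-14). Akap12, a scaffold for protein kinases A and C, was at 53.1, 60.2 and 54.8 CPM in Rescue and 0.254, 0.727 and 0.227 CPM in PKP4-KO, and Flot2, a protein of membrane microdomains, at 71.8, 67.4 and 49.996 CPM in Rescue and 1.02, 0 and 0.341 CPM in PKP4-KO. Serpinb9b, a serine protease inhibitor, was at 45.5, 42.7 and 46.4 CPM in Rescue and 0.127, 0.145 and 0.568 CPM in PKP4-KO. Padi4, which turns arginine of proteins into citrulline, was at 69.1, 68.4 and 48.00 CPM in Rescue and 0.127, 0.436 and 1.14 CPM in PKP4-KO, and the chemokine Ppbp at 70.4, 67.4 and 118 CPM in Rescue and 1.65, 1.31 and 0.227 CPM in PKP4-KO. In each of these, every PKP4-KO library was below 2 CPM and every Rescue library above 40 CPM. WT had 22.2 ± 2.14 CPM of Gpsm1, 9.94 ± 3.46 CPM of Akap12 and 514 ± 64.9 CPM of Ppbp.

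The 10 at the lower end were Rbp7, Wfdc12, Cphx1, Snai1, Akr1c18, Krt1, Tdh, Stfa3, Clec2d and Slurp1. Rbp7 (ENSMUSG00000028996, chr4:149534116-149539437, reverse strand), a retinol-binding protein, was at 0, 0 and 0 CPM in Rescue and 111, 123 and 91.2 CPM in PKP4-KO. On this TMM scale that is at least 816-fold lower in Rescue when 3 counts per library are taken as its floor. For Wfdc12, Cphx1 and Snai1, which had no count in Rescue either, the bounds were 293-, 249.99- and 179-fold. All these bounds include the TMM factors and hold only for that scaling. Without TMM factors the log2 difference of Rbp7 was -12.93 instead of -13.94. Snai1, a repressor of E-cadherin, was at 0, 0 and 0 CPM in Rescue and 27.1, 27.5 and 16.9 CPM in PKP4-KO, and its mean in WT was 0.147 ± 0.0773 CPM. Its relative Snai2 was at 71.6, 81.3 and 86.4 CPM in Rescue and 8.76, 11.6 and 7.84 CPM in PKP4-KO and rose by 3.09 ± 0.22 (adjusted p = 2.51e-12). Akr1c18, an aldo-keto reductase, was at 0.602, 0.467 and 0.951 CPM in Rescue and 169, 193 and 174 CPM in PKP4-KO. Slurp1, a secreted keratinocyte protein, was at 0.463, 0.273 and 0.714 CPM in Rescue and 64.02, 73.4 and 59.96 CPM in PKP4-KO, with 74.3 ± 32.4 CPM in WT. No overlap of the groups was a condition for the choice of these 10 genes, and it held for 75.5% of all tested genes. For 9 of the 10, all except Slurp1, the WT mean was below 40 CPM and closer to Rescue.

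Genes of cell-matrix adhesion were mostly higher. In the list of focal adhesion and integrin genes, 17 of 21 tested genes were higher and 1 lower in Rescue (15 and 2 with the length offset, 21 and 0 without TMM factors), with a median 1.28 (0.86 with the length offset) above all genes. These genes are long (median 7015 bp), and 13 were called higher both ways. Itgav, an integrin subunit that binds fibronectin and vitronectin, was at 22.8, 27.1 and 29.7 CPM in Rescue and 3.05, 2.76 and 2.27 CPM in PKP4-KO (log2 difference 3.30 ± 0.41, adjusted p = 1.17e-07; 2.21 with the length offset). Itga6, a subunit of the hemidesmosomal integrin, was at 112, 131 and 133 CPM in Rescue and 29.7, 27.8 and 29.4 CPM in PKP4-KO (2.11 ± 0.32; 1.14 with the length offset). Tns3, a tensin of adhesion sites, was at 35.7, 32.6 and 23.3 CPM in Rescue and 4.45, 1.02 and 4.66 CPM in PKP4-KO (3.15 ± 0.28; 1.99 with the length offset). Tln1 was at 89.1 ± 11.8 against 94.5 ± 11.8 CPM and was not called, but was lower with the offset (-1.11, adjusted p = 6.98e-07). Of hemidesmosome and basement membrane genes, 13 of 15 were higher and 2 lower in Rescue (8 and 2 with the length offset, 14 and 0 without TMM factors). Lamb1, a laminin chain, was at 35.5, 33.5 and 34.5 CPM in Rescue and 2.41, 2.18 and 1.93 CPM in PKP4-KO (3.99 ± 0.22; 2.96 with the length offset).

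At cell-cell contacts the picture was mixed. Of adherens junction genes, 10 of 15 were higher and 2 lower in Rescue (8 and 3 with the length offset, 14 and 1 without TMM factors). Arvcf, a close relative of Pkp4, was at 25.3, 26.1 and 24.9 CPM in Rescue and 4.95, 3.34 and 3.75 CPM in PKP4-KO, a log2 difference of 2.66 ± 0.17 (adjusted p = 4.78e-13; 1.94 with the length offset). Jup, which encodes plakoglobin of adherens junctions and desmosomes, was at 758, 817 and 646 CPM in Rescue and 2777, 2266 and 2263 CPM in PKP4-KO, lower in every Rescue library (-1.72 ± 0.20, adjusted p = 3.64e-08; -2.40 with the length offset). Cdh1, E-cadherin, was at 92.2 ± 8.47 against 65.6 ± 6.51 CPM (0.49 ± 0.18, adjusted p = 0.0175; 0.10 and adjusted p = 0.56 with the length offset). Ctnnd1, p120-catenin, was at 48.8 ± 3.76 against 52.01 ± 2.87 CPM and was not called.

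Of desmosome genes, 6 of 15 were higher and 4 lower in Rescue (3 and 5 with the length offset, 11 and 1 without TMM factors). In the main model 66.7% of them were called, the same share as of all genes. Pkp1, the main plakophilin of the suprabasal layers, was at 1348, 1435 and 1166 CPM in Rescue and 2963, 2616 and 2642 CPM in PKP4-KO (-1.06 ± 0.12, adjusted p = 1.32e-08), but lay at 0.12 without TMM factors (adjusted p = 0.479). Dsp, desmoplakin, was at 2079 ± 154 against 1146 ± 230.4 CPM (0.86 ± 0.31, adjusted p = 0.0179) and at -0.15 with the length offset (adjusted p = 0.517). Of tight junction genes, 9 of 13 were higher and 0 lower in Rescue (10 and 1 with the length offset, 13 and 0 without TMM factors). Cldn1, the claudin that epidermal tight junctions need, was at 111, 108 and 119 CPM in Rescue and 20.96, 19.2 and 18.1 CPM in PKP4-KO (2.54 ± 0.20, adjusted p = 2.03e-11; 2.09 with the length offset), and Tjp1, ZO-1, at 75.2, 86.8 and 80.7 CPM in Rescue and 22.2, 13.4 and 13.6 CPM in PKP4-KO (2.30 ± 0.28; 1.46 with the length offset). Of gap junction connexins, 2 of 7 were higher and 5 lower in Rescue (2 and 4 with the length offset, 5 and 1 without TMM factors). Gjb2 was at 70.3, 65.3 and 81.8 CPM in Rescue and 399, 384 and 254 CPM in PKP4-KO (-2.25 ± 0.21), whereas Gja1, lower in the main model, was higher without TMM factors.

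Of actin, tropomyosin and SRF target genes, 11 of 22 were higher and 7 lower in Rescue (7 and 8 with the length offset, 15 and 1 without TMM factors). Ccn2, a secreted target of YAP and SRF, was at 14.2, 19.4 and 15.5 CPM in Rescue and 1.27, 0.436 and 0.568 CPM in PKP4-KO (4.41 ± 0.49, adjusted p = 1.62e-08). Tpm1, a tropomyosin, was at 471, 460.1 and 443 CPM in Rescue and 95.01, 102 and 117 CPM in PKP4-KO (2.13 ± 0.16), and Cnn3, a calponin, at 162, 160.5 and 141 CPM in Rescue and 35.2, 31.8 and 22.6 CPM in PKP4-KO (2.37 ± 0.22), both with no overlap. Tmsb4x, which binds actin monomers, was lower (-2.02 ± 0.44; -1.16 with the offset).

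By share of counts, the largest differences were in Rn18s.rs5, Lgals7, Krt6b, Fabp5, Eef1a1, Rplp1, Rpl41, Cstdc5, Krt16 and Rpl27a. The share was lower in Rescue for all of these except Eef1a1 (2.11% in Rescue against 1.28% in PKP4-KO). Rn18s.rs5, a ribosomal RNA, took 0.820% against 2.33%, Lgals7 0.109% against 1.33% and Fabp5 0.257% against 1.15%. Lgals7, galectin-7 of stratified epithelia, was at 899, 823 and 1089 CPM in Rescue and 22191, 32362 and 23216 CPM in PKP4-KO, and Fabp5, a fatty acid binding protein, at 2291, 2026 and 2279 CPM in Rescue and 20155, 24633 and 21884 CPM in PKP4-KO, both without overlap of the groups. Eef1a1, an elongation factor, differed by -0.46 ± 0.12 on the log2 scale in the main model, and by 0.72 without TMM factors. The 80 ribosomal protein genes were lower in Rescue for 80 of 80 (75 of 80 with the length offset; 64 lower and 1 higher without TMM factors), against 2 lower at 24 h in HCM.

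Secreted and defence genes of the epidermis moved both ways. Of epidermal proteases and their inhibitors, 4 of 21 were higher and 12 lower in Rescue (7 and 11 with the length offset, 9 and 9 without TMM factors). The stefin genes Stfa1, Stfa2, Stfa3 and Csta1, cystatins that block cathepsins, summed to 107.2, 90.1 and 143.5 CPM in Rescue and 5391, 6852 and 5586 CPM in PKP4-KO; they share sequence, so that single members are uncertain. Serpinb3a was at 53.3 ± 15.6 against 730.4 ± 81.7 CPM, with 1.18 ± 0.688 CPM in WT. Ctsl, cathepsin L itself, was at 1007 ± 55.00 against 95.6 ± 2.67 CPM and higher (3.40 ± 0.14), as were Klk6 (2.21 ± 0.41) and Klk7 (1.40 ± 0.29), while Klk5 (-3.46 ± 0.35) was lower. Of S100 genes, 0 of 11 were higher and 9 lower in Rescue (1 and 6 with the length offset, 1 and 4 without TMM factors). S100a8 was at 117, 100.4 and 148 CPM in Rescue and 1467, 1622 and 1178 CPM in PKP4-KO (-3.55 ± 1.05; -1.75 with the offset), and its partner S100a9 differed by -2.82 ± 0.81 but by -0.63 with the offset (adjusted p = 0.144).

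Of cytokines and chemokines, 6 of 24 were higher and 9 lower in Rescue (8 and 9 with the length offset, 10 and 6 without TMM factors). Il33, an alarmin released from damaged epithelium, was at 20.7, 22.2 and 35.7 CPM in Rescue and 187, 175 and 162 CPM in PKP4-KO (-2.74 ± 0.24, adjusted p = 1.36e-10). Tslp, which drives allergic inflammation in skin, was at 10.1, 11.2 and 18.4 CPM in Rescue and 173, 177 and 108 CPM in PKP4-KO (-3.53 ± 0.35, adjusted p = 2.12e-09), Il36a at 2.92, 3.23 and 2.62 CPM in Rescue and 61.9, 58.00 and 45.7 CPM in PKP4-KO (-4.23 ± 0.43) and Il18 at 30.8, 31.1 and 46.00 CPM in Rescue and 232, 266 and 224 CPM in PKP4-KO (-2.74 ± 0.35). Il1a, by contrast, was at 38.05 ± 2.52 against 11.7 ± 1.18 CPM and higher (1.70 ± 0.24), as was Il36g (1.17 ± 0.15). Of interferon-stimulated genes, 2 of 14 were higher and 3 lower in Rescue (2 and 2 with the length offset, 8 and 0 without TMM factors), the list with the smallest share of calls.

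Among the other programmes, cholesterol synthesis genes were mostly higher: 16 of 23 tested genes were higher and 1 lower in Rescue (13 and 2 with the length offset, 22 and 0 without TMM factors). Hmgcs1 was at 331, 341 and 411 CPM in Rescue and 93.5, 80.97 and 85.2 CPM in PKP4-KO (2.06 ± 0.28; 1.66 with the offset). Of p53 targets and cell cycle inhibitors, 13 of 20 were higher and 2 lower in Rescue (14 and 1 with the length offset, 18 and 1 without TMM factors). Pmaip1, Noxa, was at 109.8, 128 and 111 CPM in Rescue and 19.1, 11.8 and 10.3 CPM in PKP4-KO (3.08 ± 0.30, adjusted p = 1.14e-09), while Cdkn1a, p21, was at 325 ± 45.00 against 1058 ± 92.6 CPM and lower (-1.70 ± 0.27). Of glycolysis and hypoxia genes, 4 of 24 were higher and 12 lower in Rescue (1 and 15 with the length offset, 18 and 2 without TMM factors). Ankrd37 was at 15.9, 15.4 and 18.8 CPM in Rescue and 180.2, 213 and 142 CPM in PKP4-KO (-3.42 ± 0.40) and Ndrg1 at 474, 516 and 371 CPM in Rescue and 1610.3, 1343 and 1215 CPM in PKP4-KO (-1.62 ± 0.17); Gapdh, which has many pseudogenes, was at 51.1 ± 6.45 against 417 ± 169 CPM.

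Barrier lipid enzymes moved both ways, 7 higher and 7 lower of 17 (5 and 8 with the length offset, 12 and 1 without TMM factors). Alox12b, a lipoxygenase of the skin barrier, was at 24.2, 24.5 and 22.3 CPM in Rescue and 189, 128 and 96.4 CPM in PKP4-KO and lower (-2.54 ± 0.28), and Abca12, the lipid transporter of lamellar granules, at 91.5, 96.4 and 82.1 CPM in Rescue and 26.8, 20.4 and 13.97 CPM in PKP4-KO and higher (2.14 ± 0.29; 0.84 with the offset). Keratinocyte transcription factors gave 13 higher and 6 lower of 30 (8 and 12 with the length offset, 23 and 3 without TMM factors). Ets1 was at 27.1, 28.7 and 27.1 CPM in Rescue and 1.91, 2.18 and 2.27 CPM in PKP4-KO (3.70 ± 0.30), Prdm1 at 29.2 ± 6.72 against 3.42 ± 1.38 CPM (3.10 ± 0.39) and Id1, an inhibitor of differentiation, at 18.6, 15.5 and 23.8 CPM in Rescue and 232, 268 and 240.4 CPM in PKP4-KO (-3.68 ± 0.25). EMT regulators and markers gave 7 higher and 5 lower of 16 (6 and 5 with the length offset, 12 and 2 without TMM factors), and Epcam was at 31.2 ± 0.792 against 4.11 ± 1.28 CPM (2.93 ± 0.25). Collagens and matrix proteases gave 7 higher and 5 lower of 18 (4 and 4 with the length offset, 8 and 3 without TMM factors); Timp3 was at 2.64, 2.06 and 1.47 CPM in Rescue and 78.6, 83.4 and 76.5 CPM in PKP4-KO and lower (-5.26 ± 0.41), and Timp2 at 199, 183 and 193 CPM in Rescue and 11.9, 9.45 and 9.31 CPM in PKP4-KO and higher (4.23 ± 0.25).

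Integrated and ER stress genes gave 11 higher and 7 lower of 26 (9 and 5 with the length offset, 20 and 2 without TMM factors), with Ddit3 at 28.2 ± 2.52 against 144 ± 29.3 CPM (-2.35 ± 0.26) and Trib3 at 109.7 ± 8.95 against 357 ± 47.3 CPM (-1.70 ± 0.19). NRF2 targets gave 8 higher and 7 lower of 21 (8 and 6 with the length offset, 17 and 3 without TMM factors). Txnrd1, thioredoxin reductase, was at 112, 126 and 97.8 CPM in Rescue and 9.91, 11.2 and 10.2 CPM in PKP4-KO (3.42 ± 0.31), and Gsta2 at 14.3 ± 0.838 against 132 ± 9.91 CPM (-3.20 ± 0.54). EGF receptors and ligands gave 5 higher and 2 lower of 11 (0 and 3 with the length offset, 8 and 1 without TMM factors): Epgn was at 24.9, 32.2 and 42.5 CPM in Rescue and 260.4, 282 and 229 CPM in PKP4-KO (-2.95 ± 0.24), whereas Egfr and Nrg1, higher in the main model by 0.91 and 1.12, lay at -0.23 and -0.23 with the length offset. Hox and Cdx genes, which record body position, gave 6 higher and 10 lower of 20 (7 and 10 with the length offset, 8 and 5 without TMM factors), with Hoxa7 at 2.59 ± 0.581 against 23.6 ± 2.47 CPM (-3.19 ± 0.56). Cell cycle genes gave 18 higher and 11 lower of 40 (14 and 14 with the length offset, 34 and 2 without TMM factors): Mki67 was at 18.6, 20.95 and 39.102 CPM in Rescue and 6.22, 4.22 and 4.09 CPM in PKP4-KO (2.43 ± 0.43; 1.39 with the offset) and E2f2 at 3.48, 2.38 and 2.52 CPM in Rescue and 22.6, 23.3 and 22.1 CPM in PKP4-KO (-3.02 ± 0.28). Over the autosomes, the median log2 difference lay between −0.09 and 0.47.

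**Figure D4:**
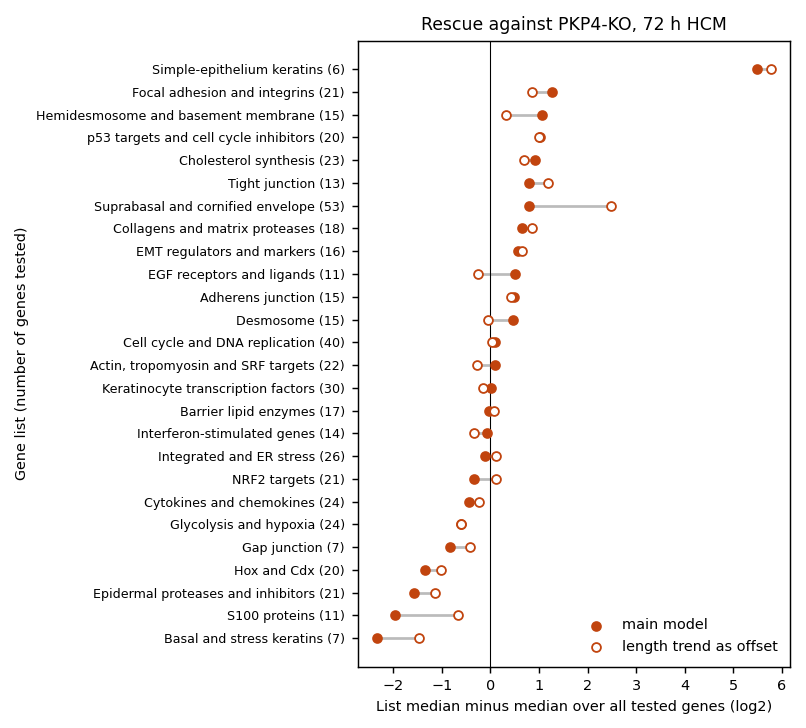
Median log2 difference of each of 26 lists minus the median over all tested genes (horizontal axis), for Rescue against PKP4-KO at 72 h in HCM; the vertical axis names the lists with their number of tested genes. Filled points are the main model and open points the model with the length trend as an offset. Simple-epithelium keratins are highest (5.49) and basal and stress keratins lowest (−2.33); 7 of the 26 medians change sign with the offset, most of them near 0 and the desmosome, EGF and NRF2 lists further from it.

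Against WT the counts are given for some of the lists only, in the main model and, in parentheses, with the length offset. Over all genes, 5466 differed between Rescue and WT (36.2%, 19.5% higher and 16.7% lower in Rescue) and 7831 between PKP4-KO and WT (51.8%, 21.9% higher and 29.9% lower in PKP4-KO). Of focal adhesion genes, 7 were higher and 2 lower in Rescue than in WT (4 and 3 with the offset), whereas the PKP4-KO libraries had 2 above and 15 below WT (3 and 11). Of hemidesmosome genes, 3 were higher and 3 lower in Rescue than in WT (0 and 6 with the offset), whereas the PKP4-KO libraries had 1 above and 12 below WT (1 and 12), and of tight junction genes, 2 were higher and 1 lower in Rescue than in WT (2 and 1 with the offset), whereas the PKP4-KO libraries had 1 above and 11 below WT (1 and 9). Basal and stress keratins went to both sides of WT in the main model, where 0 were higher and 6 lower in Rescue than in WT (0 and 6 with the offset), whereas the PKP4-KO libraries had 5 above and 0 below WT (4 and 0). Of glycolysis and hypoxia genes, 20 were higher and 0 lower in Rescue than in WT (20 and 0 with the offset), whereas the PKP4-KO libraries had 20 above and 1 below WT (20 and 0). Of Hox and Cdx genes, 14 were higher and 1 lower in Rescue than in WT (14 and 1 with the offset), whereas the PKP4-KO libraries had 13 above and 0 below WT (12 and 0). Of suprabasal and cornified genes, 9 were higher and 10 lower in Rescue than in WT (24 and 9 with the offset). For the same list the PKP4-KO libraries had 15 above and 25 below WT (15 and 30). These comparisons share the WT libraries, and each is given with its own counts.

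The same lines differed less, and partly in the opposite direction, after 24 h in HCM. At 24 h, 6160 genes differed (40.8%), 3285 higher (21.7%) and 2875 lower (19.0%) in Rescue. Of the genes called, 4358 were called at both times, 43.2% of those at 72 h and 70.7% of those at 24 h, and 3278 of them in the same and 1080 in opposite directions. The difference between the times, tested as an interaction, was called for 7130 genes (47.2%), 4098 of them with a higher and 3032 with a lower Rescue effect at 72 h (27.1% and 20.1%). With the length offset these counts were 3204 and 3283, and without TMM factors 8189 and 1044. The counts of lists at 24 h, in LCM and for the interaction are from the main model only. The r of the log2 differences over the 15114 genes was 0.516, given as a description; both times share the lines and the gene lengths, not the libraries.

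The Rescue effect was lower at 72 h than at 24 h for 14 of 24 cytokines and chemokines and 16 of 17 barrier lipid enzymes. Of the cytokines and chemokines, 18 were higher and 3 lower in Rescue at 24 h, 7 were higher at 24 h and lower at 72 h, and 6 were higher at both times. At 24 h, Tslp was at 97.1, 75.6 and 74.6 CPM in Rescue and 2.38, 2.26 and 3.47 CPM in PKP4-KO, a log2 difference of 4.95 against -3.53 at 72 h, and the change was -8.48 ± 0.52 (adjusted p = 5.88e-13). Il33 was at 298, 271 and 223 CPM in Rescue and 21.1, 24.98 and 15.4 CPM in PKP4-KO at 24 h, and its difference changed by -6.43 ± 0.34 (adjusted p = 4.45e-14). In both genes Rescue was the higher line in all libraries at 24 h and the lower line in all libraries at 72 h. All 17 barrier lipid enzymes had an interaction past the threshold. Of these 17, 16 were higher in Rescue at 24 h, 7 were higher at 24 h and lower at 72 h, and 6 were higher at both times. Alox12b differed by 4.46 at 24 h and -2.54 at 72 h. Tgm1 differed by 4.20 at 24 h and -2.72 at 72 h (change -6.91 ± 0.31, adjusted p = 2.07e-15), and Krt6b by 2.06 and -2.54.

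In the main model the effect was higher at 72 h for most cell cycle and focal adhesion genes. The focal adhesion genes are long (median 7015 bp). Over all genes of at least 8 kb the median difference was 1.21 at 72 h and 0.28 at 24 h. Of the 40 cell cycle genes, 33 were lower and 0 higher in Rescue at 24 h, while 36 had a higher Rescue effect at 72 h and 11 were lower at 24 h and higher at 72 h. Mcm4, a subunit of the replicative helicase, differed by -1.36 at 24 h and 1.30 at 72 h. Of the 21 focal adhesion genes, 5 were higher and 5 lower at 24 h, and 17 had a higher Rescue effect at 72 h. Of the 15 desmosome genes, all were higher in Rescue at 24 h, and 8 had a lower effect at 72 h. The simple-epithelium keratins were higher at both times for 5 of 6, and 2 of 6 had an interaction. Of the 20 Lce genes, 17 were already higher at 24 h; Lce1g, which was not, differed by 0.33 (adjusted p = 0.513). Krt1 differed by -2.68 at 24 h (adjusted p = 5.73e-05).

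**Figure D5:**
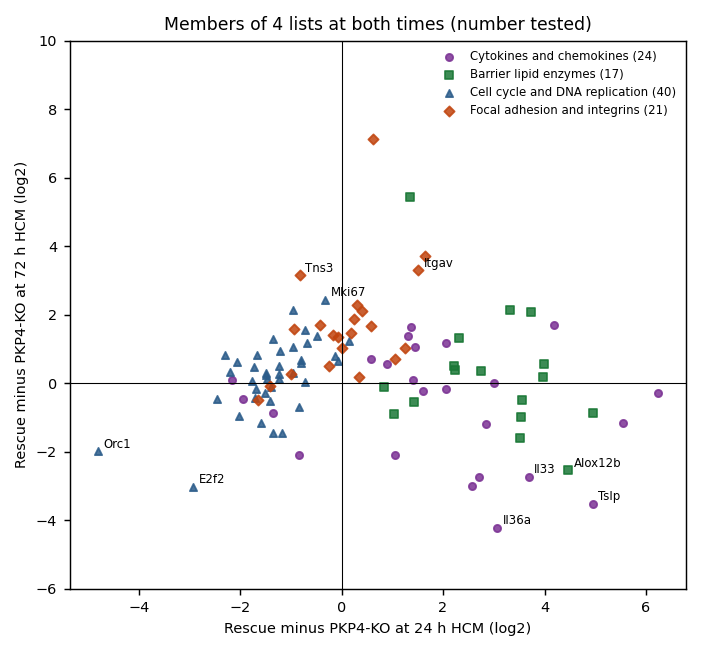
Rescue minus PKP4-KO on the log2 scale at 24 h (horizontal axis) and 72 h in HCM (vertical axis) for the tested genes of 4 lists, 1 point per gene. Cytokines such as Tslp (4.95 and −3.53) and barrier lipid genes such as Alox12b lie at the lower right, cell cycle genes mostly left of 0, and most focal adhesion genes above 0 with Itgav at 3.30.

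In LCM at 72 h, 6278 genes differed between the lines (41.5%, 23.3% higher and 18.3% lower in Rescue), and the Rescue effect differed between HCM and LCM for 4765 (31.5%), 2734 of them higher (18.1%) and 2031 lower in HCM (13.4%). There, 16 of 17 barrier lipid enzymes were higher in Rescue and 0 lower, 5 of 6 simple-epithelium keratins were higher, and of the 53 suprabasal and cornified genes 26 were higher and 8 lower. Basal and stress keratins were lower for 4 of 7 in LCM, and focal adhesion genes higher for 13 of 21 and lower for 3.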

How the data were processed

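RNA of 36 keratinocyte cultures was sequenced from strand-specific poly(A) libraries. The authors deposited whole-number read counts per gene, not normalized, which per the labels were made with HISAT2 2.1.0, SAMtools 1.10 and featureCounts 2.0.0 on mm39 with the GFP-PKP4 sequence added; the strand setting of the counting is not given in the sources used here. Of 55358 genes in the table, 26578 had no reads and 15114 passed filterByExpr over the 12 groups. The counts were scaled with TMM factors and tested with edgeR 4.0.16 (R 4.3.3) by the quasi-likelihood test in 1 model over 36 libraries (24 residual degrees of freedom) with Benjamini-Hochberg adjustment at 0.05, and against a 2-fold change with glmTreat. CPM are counts scaled to a common library size with TMM factors. The 6 libraries compared held 14299799 to 21669228 counts and the 36 libraries 13602728 to 22467187, and floors of 3 counts cover counting error only.

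Named were Pkp4 and GFP-PKP4, the 10 protein-coding genes with the largest difference in each direction (mean of at least 20 CPM, no overlap), the 10 genes with the largest change in share of counts, up to 4 members of each list (mean of at least 10 CPM) with the members that did not pass, and 5 genes in each direction of the difference between the times. Other list members were named for their known role after their values were seen. Members and the 26 lists were chosen with earlier results of these data known. The length offset (lowess, span 0.3, on each library's log2 CPM) and the ATAAAA letters were added after the data were seen. Alternatives were other scalings and filters, fits on the groups compared, the replicate number as a block, edgeR's exact test, DESeq2 1.42.0 and leaving out each library.

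On simulated counts for Rescue against PKP4-KO at 72 h HCM (14693 genes), 10.4% of 1.5-fold, 53.7% of 2-fold and 84.8% of 4-fold changes were recovered and 4.81% of calls were false. With a simulated length trend of a slope set by hand (14690 genes) 97.7% of calls were false without the offset and 2.08% with it. Of the unchanged genes, 44.9% were called without the offset and 0.0138% with it. Only 67, 67 and 66 genes were given changes of 1.5-, 2- and 4-fold. The shares of false calls depend on these few genes and do not carry over to the real calls. 1 more list and some genes are not reported here. Gene positions are from GENCODE on GRCm39 and promoter sequences from RefSeq on GRCm38.p6.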

Additional observations from a re-analysis of the deposited data

Results flagged for a closer look

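The effect of Rescue against PKP4-KO differed between 72 h and 24 h in HCM for 7130 genes and between HCM and LCM at 72 h for 4765 genes, each by the test of the difference itself in edgeR's quasi-likelihood model. Both differences use the same 6 libraries at 72 h in HCM.

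Among single genes the largest changes of the effect from 24 h to 72 h were, upward, 5.03 on the log2 scale for Ctnnal1 (adjusted p = 3.78e-11), 5.02 for Dtx4, 4.84 for Gpsm1, 4.78 for Peg3 and 4.69 for Gpnmb. Downward they were -10.2 for Rbp7, -8.82 for Wfdc12, -8.48 for Tslp (adjusted p = 5.88e-13), -8.47 for Mt4 and -8.31 for Cphx1. Rbp7, Wfdc12 and Cphx1 had no count in Rescue at 72 h, so that the size of their change depends on the prior count and is no bound. Ctnnal1, a relative of alpha-catenin, was at 43.6, 50.2 and 52.2 CPM in Rescue and 13.5, 10.8 and 12.04 CPM in PKP4-KO at 72 h and 8.66, 9.15 and 10.3 CPM in Rescue and 78.7, 90.3 and 59.2 CPM in PKP4-KO at 24 h. Mt4, a metallothionein of stratified epithelia, was at 0.0927, 0.545 and 0.333 CPM in Rescue and 14.7, 27.2 and 27.7 CPM in PKP4-KO at 72 h and 2.83, 2.70 and 4.27 CPM in Rescue and 0.419, 0.0418 and 1.70 CPM in PKP4-KO at 24 h.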

How the results depend on the processing

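Genes called at 72 h in HCM numbered 10082 and between 7850 and 11662 under the alternatives. Without TMM factors, 7353 genes instead of 4765 differed in effect between HCM and LCM, and 7916 instead of 4887 passed 2-fold; the Rescue mean of GFP-PKP4 was 344.6 instead of 294.4 CPM. There Eef1a1 (0.72), Gja1 (0.54) and Krt5 (0.38), lower in the main model, were called higher, Pkp1 (0.12), Evpl (0.15) and Ifi35 (0.31) lay above 0 without a call, and Sprr1a (0.91), Sbsn (0.79), Ctnnd1 (1.08) and Tln1 (1.08), not called in the main model, were called higher. With at least 10 counts in every library, 3177 genes passed 2-fold and the median of the collagen list was −0.40. In LCM, 3708 genes were called with only the compared groups in the fit and 3931 by edgeR's exact test, against 6278. Pkp4 was at 0.38 in the main model and at 1.55 without TMM factors (adjusted p = 3.87e-06 in the quasi-likelihood test). It was no longer called with upper-quartile factors (0.35), without a filter (0.39) or with only the compared groups (0.28). The exact test (0.28) and DESeq2 (0.25) did not call it either, and it lay at −0.21 with the length offset. With that offset Nrg1 and Egfr at −0.23, and the list medians of desmosome (−0.047), NRF2 (0.11) and EGF (−0.26) genes changed sign. The difference in share was −12.9 percentage points for the 50 most counted genes instead of −4.22 for 10, and the range of chromosome medians was 0.15 without a filter instead of 0.55. The replicate numbers do not pair the libraries (correlations of −0.0236, −0.0851 and −0.0684). As a block they gave 10038 calls, 5617 higher and 4421 lower; block and offset together gave −0.21 for Pkp4, −0.24 for Nrg1, −0.21 for Egfr, and −0.032, 0.11 and −0.27 for those 3 lists. Leaving out 1 library gave 9355 to 9523 calls at 72 h in HCM, 5281 to 5567 at 24 h, 4956 to 7030 in LCM, 6107 to 7825 and 3198 to 5764 for the differences between times and media, 4167 to 4567 past 2-fold and 0.19 to 0.53 for Pkp4. The cause of these changes was not tested. Of 126 named genes followed through the alternatives, Pkp4 apart, 126 kept their direction and call in DESeq2, 120 with the length offset (4 lost the call, 2 reversed) and 116 without TMM factors (5 lost the call, 5 reversed). Most of the 126 were named for large differences in these same libraries, so that keeping the call on the same counts was likely from the start.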
